A study of Mus musculus with 6 samples.

Results

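The genes examined encode the inhibitory receptor PD-1, its ligands, the phosphatases it recruits, and the CD28 branch of T cell costimulation. They are 9 of the 49315 genes in the deposited count table, chosen by name: the receptors Pdcd1, Cd28 and Icos, the ligands Cd274, Pdcd1lg2, Cd80 and Cd86, and the phosphatases Ptpn6 and Ptpn11. The RNA came from CD8+ T cells of tumor-draining lymph nodes, sorted from C57Bl6/J females of WT genotype with B16F10 melanoma, a transplanted line that the sample labels spell B26F10. The combination group (n = 3 mice) received HCW9218 with anti PD1, and the monotherapy group (n = 3 mice) received HCW9218 alone. HCW9218 is named in the series title as a TGF-βRII/IL-15 complex. It was given once under the skin at a tumor size of 50 to 100 mm3, the antibody was given into the peritoneum, and the cells were taken on day 5. All mice therefore had HCW9218, and every difference is relative to HCW9218 alone. No clone or dose of the antibody and no age is given in the labels.

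PD-1 carries tyrosine motifs in its tail that, once a ligand is bound, recruit the phosphatases SHP-2 (Ptpn11) and SHP-1 (Ptpn6). These act on proximal signals of the T cell receptor and of CD28. Its ligands are PD-L1 (Cd274), which interferon-gamma induces in many cell types, and PD-L2 (Pdcd1lg2), which is found mainly on dendritic cells and macrophages. CD28 is the main costimulatory receptor of naive T cells and binds CD80 and CD86 on antigen-presenting cells, as does its competitor CTLA-4. ICOS is a relative of CD28 that appears on T cells after activation and has a ligand of its own.

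Libraries held 34568074 to 39120808 counts in the combination and 37116680 to 40101346 in monotherapy. Values below are CPM, counts scaled to a common library size with edgeR's TMM factors, and levels of different genes are compared as CPM per kilobase of the deposited gene length. The CD8 T cell markers were high, with Cd8a at 1440 to 1588 CPM in the combination and 1421 to 1646 CPM in monotherapy, and none of its 10 listed genes passed. Cd4 lay at 0.425 to 2.11 CPM in the combination and 1.67 to 3.06 CPM in monotherapy, and none of 6 CD4 and regulatory T cell markers passed. Of 6 NK cell markers Gzma and Klre1 rose, where 0.951% of all genes tested were called higher. Ncr1 was at most at 0.362 CPM in any library. The 6 summed to 182.6 to 217.3 CPM in the combination and 122.7 to 140.1 CPM in monotherapy. Of single genes, 7.17% also lay all above monotherapy. Most of that sum was Eomes, which CD8 T cells also express and which did not pass, at 148.7 to 185.6 CPM in the combination and 112.6 to 130.0 CPM in monotherapy. The melanocyte enzymes Dct and Tyrp1 summed to 0, 582 and 743 counts in the 3 combination libraries and to 1, 0 and 0 in monotherapy, and 7 melanocyte markers summed to 30.3 to 54.7 CPM in the combination and 21.9 to 28.7 CPM in monotherapy. Most of the melanocyte sum was Pmel in every library, and without it the other 6 overlapped, at 1.22 to 24.8 CPM in the combination and 0.991 to 1.70 CPM in monotherapy. The share of all counts in 88 ribosomal protein genes was 18.4%, 12.8% and 8.11% for the combination and 13.8%, 12.2% and 11.7% for monotherapy, so combination replicates 1 and 3 lay outside the monotherapy range on opposite sides. Their part in the results was not tested beyond the fits given beside them.

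For the PD-1 receptor and its ligand PD-L1, the promoter sequences are shown because the receptor is the target of the antibody and the ligand had the largest negative log2 fold change of the 8 members tested. Both come from RefSeq on GRCm38.p6, are 300 bases long and end 50 bases after the RefSeq start. Capitals in the Cd274 sequence mark the interferon regulatory factor core AANNGAAA and the interferon-gamma activated site TTCNNNGAA, and in the Pdcd1 sequence the NFAT core GGAAA and the AP-1 site TGANTCA, each searched on both strands.
Cd274, chr19:29367188-29367487, plus strand: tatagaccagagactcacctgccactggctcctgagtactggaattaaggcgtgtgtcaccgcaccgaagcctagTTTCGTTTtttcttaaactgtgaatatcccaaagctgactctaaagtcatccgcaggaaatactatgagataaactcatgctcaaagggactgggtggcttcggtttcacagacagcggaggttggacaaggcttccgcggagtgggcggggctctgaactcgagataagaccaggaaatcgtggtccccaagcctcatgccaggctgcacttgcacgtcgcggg
Pdcd1, chr1:94052504-94052803, minus strand: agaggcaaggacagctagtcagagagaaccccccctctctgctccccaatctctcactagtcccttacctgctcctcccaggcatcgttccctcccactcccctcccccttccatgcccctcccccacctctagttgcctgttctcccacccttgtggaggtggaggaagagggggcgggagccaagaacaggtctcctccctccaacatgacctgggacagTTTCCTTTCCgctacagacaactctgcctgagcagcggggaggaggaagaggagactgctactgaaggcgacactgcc
The Cd274 window held 1 interferon regulatory factor core, TTTCGTTT, starting at base -175 from the RefSeq start and reading on the opposite strand, and no TTCNNNGAA. It also held the NFAT core at bases -120 and -1. The Pdcd1 window held the NFAT core at bases -28 and -23, also on the opposite strand, and no TGANTCA. Both of these NFAT cores overlap a match to AANNGAAA that starts at base -28 in the same window. Of 32851 promoters of this length, 23.9% held AANNGAAA, 8.30% TTCNNNGAA, 61.3% GGAAA and 7.81% TGANTCA, so these matches are common. Promoters were matched for 6 of the 9 members, and the other four matched windows held NFAT cores in Ptpn6 and Pdcd1lg2, an AP-1 site in Cd80 and AANNGAAA in Pdcd1lg2 and Cd80, with no match in Ptpn11.

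Of the 9 members, Cd28 rose in the combination, none fell, 7 did not pass, and Cd80 had too few counts to be tested. The test was edgeR's quasi-likelihood test over 15142 genes with Benjamini-Hochberg adjustment, and "rose" or "fell" means an adjusted p under 0.05. Over all genes tested 0.951% were called higher and 0.132% lower, so 1 of 8 members is a single call. At an unadjusted p under 0.05 there were 2 members, Cd28 and Cd274, against 8.0% of all genes. The same 2 were the members whose combination libraries all lay on one side of monotherapy, Cd28 above and Cd274 below, while 7.17% of all genes were all above and 7.54% all below. The median log2 fold change of the 8 was -0.08, against -0.00060 for all genes tested.

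**Figure D1:**
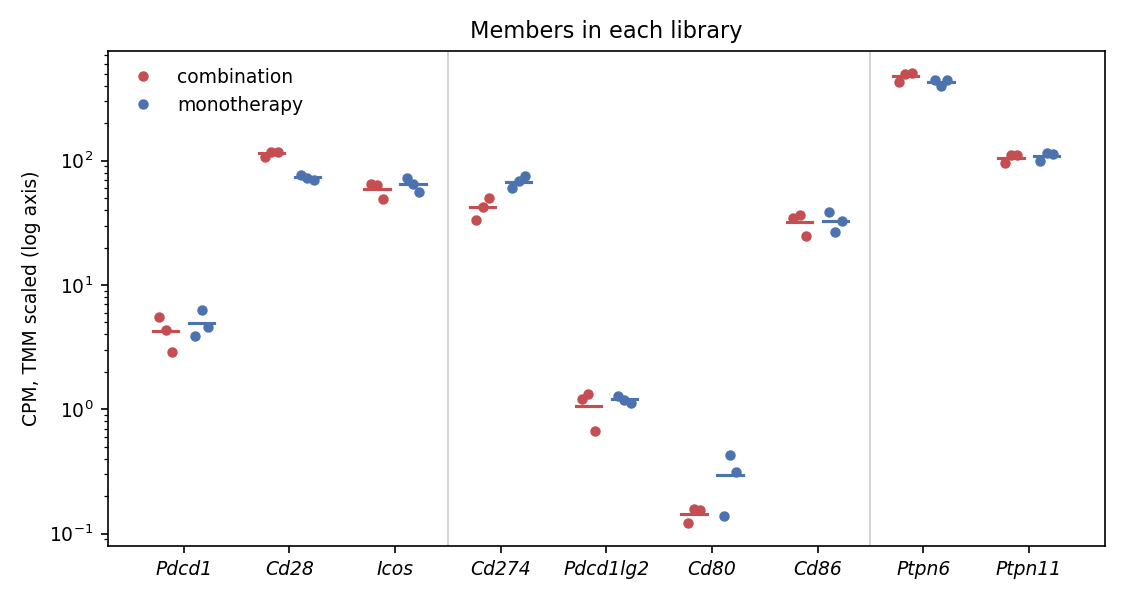
CPM of each of the 9 members in every library on a log axis, with combination in red on the left and monotherapy in blue on the right of each pair, and the mean as a bar. Receptors, ligands and phosphatases are separated by lines. The groups do not overlap for Cd28, at 108 to 118 CPM in the combination, nor for Cd274, at 33.3 to 50.2 CPM.

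Cd28 lies on chr1:60716800-60773359. Its transcripts counted 107.7, 117.0 and 117.7 CPM in combination replicates 1, 2 and 3, against 77.0, 72.7 and 69.6 CPM in monotherapy. Every combination library was above every monotherapy library, and the spread within each group was small in CPM. The means were 114 ± 5.58 CPM in the combination and 73.1 ± 3.71 CPM in monotherapy (SD, n = 3 each). This gave a log2 fold change of 0.64 ± 0.12 (SE), with a 95% interval of 0.37 to 0.91 and a ratio of 1.56 (edgeR adjusted p = 0.0386). In bulk RNA from sorted cells, more cells with a transcript cannot be told apart from more transcript per cell.

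The size of the Cd28 difference moved little when single libraries were left out, but the call did not hold. Its log2 fold change stayed between 0.61 and 0.70. The edgeR adjusted p was 0.160, 0.301 and 0.315 without monotherapy replicates 1, 2 and 3 and 0.190 without combination replicate 2. It was 0.0244 and 0.0260 without combination replicates 1 and 3. With the ribosomal protein share as a covariate, a fit chosen after the data were seen, Cd28 had a log2 fold change of 0.64 (edgeR adjusted p = 9.1e-04). With Dct and Tyrp1 as a covariate it had 0.56 (edgeR adjusted p = 0.0995).

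Icos, on the same chromosome 204567 bases from Cd28, showed no such difference. It was at 65.0, 64.0 and 49.2 CPM in the combination and 72.9, 64.8 and 55.8 CPM in monotherapy, and the groups overlapped. For Icos the log2 fold change was -0.12 ± 0.16 (SE), with a 95% interval of -0.47 to 0.23 (edgeR adjusted p = 0.958). Within each library the log2 ratio of Cd28 to Icos CPM was 0.73, 0.87 and 1.26 in the combination, against 0.08, 0.17 and 0.32 in monotherapy. The Cd28 to Icos ratios did not overlap between groups, with a difference in means of 0.76, and no test was run on them. Per kilobase, Cd28 stood at 1.10 ± 0.216 of the Icos level in the combination and 0.640 ± 0.0547 in monotherapy (SD, n = 3 each).

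Ctla4, which lies in the same gene cluster and encodes the receptor that competes with CD28 for its ligands, varied widely. It had 25.6, 10.5 and 7.82 CPM in the combination and 15.9, 17.4 and 9.58 CPM in monotherapy. The Ctla4 log2 fold change was 0.03 ± 0.40 (SE), and the log2 ratio of Cd28 to Ctla4 overlapped between groups, at 2.07 to 3.91 in the combination and 2.07 to 2.86 in monotherapy.

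Pdcd1, the target of the antibody, was a low transcript. Its libraries held 183, 165 and 111 counts in the combination and 139, 248 and 189 in monotherapy. As CPM these were 5.56, 4.35 and 2.88 in the combination, against 3.87, 6.30 and 4.56 in monotherapy, and the groups overlapped. Its log2 fold change was -0.21 ± 0.29 (SE), and its 95% interval ran from -0.85 to 0.43 (edgeR adjusted p = 0.959). The interval corresponds to ratios of 0.556 to 1.35, so a fall to 0.556 of the level and a rise to 1.35 times it are both within it.

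**Figure D2:**
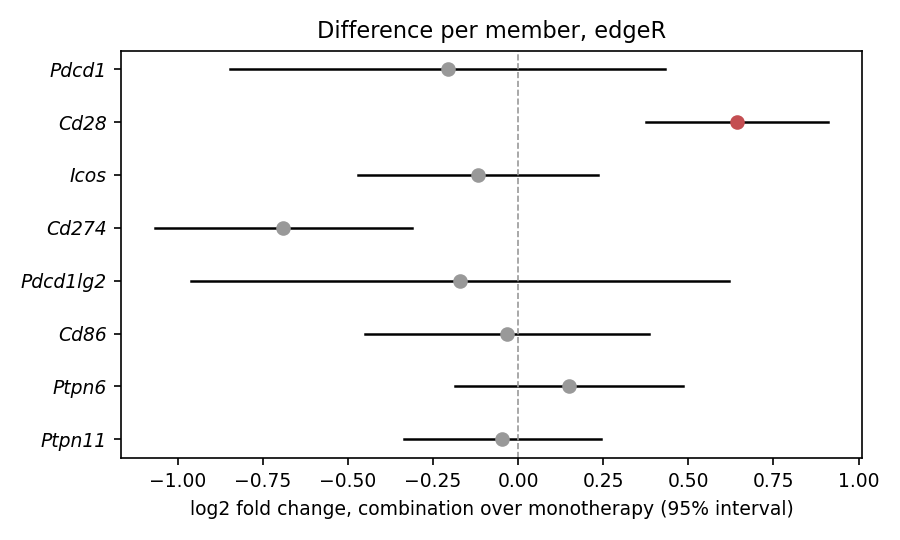
The log2 fold change of combination over monotherapy for the 8 members tested, with the 95% interval from the edgeR fit as a bar and 0 as a dashed line. Cd28 is red because it passed at an adjusted p under 0.05, and the interval of Cd274 also lies off 0 although its adjusted p was 0.133.

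Among the ligands, Cd274 was the abundant PD-1 ligand and lay lower in the combination without passing. It counted 33.3, 42.7 and 50.2 CPM in combination replicates 1, 2 and 3, against 60.3, 68.2 and 74.8 CPM in monotherapy, with no overlap. In each group the highest library was replicate 3 and the lowest replicate 1, the reverse of their order in ribosomal protein share. The log2 fold change was -0.69 ± 0.17 (SE), a ratio of 0.620 with a 95% interval of 0.477 to 0.806 (unadjusted p = 2.4e-03, edgeR adjusted p = 0.133). DESeq2 called it lower (DESeq2 adjusted p = 0.0248), as did edgeR without combination replicate 3 (edgeR adjusted p = 0.0158). With the ribosomal protein share as a covariate, a fit chosen after the data were seen, the edgeR adjusted p was 5.7e-04. Without combination replicates 1 and 2 the edgeR adjusted p was 0.191 and 0.467. Without monotherapy replicates 1, 2 and 3 it was 0.339, 0.464 and 0.536. Limma-voom did not call Cd274 lower (limma-voom adjusted p = 0.136). Over 22 other settings, its log2 fold change ran from -1.03 to -0.51.

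Pdcd1lg2 lies 22823 bases beyond Cd274 on chromosome 19 and was scarce. It had 40, 50 and 26 counts in the combination and 46, 47 and 47 in monotherapy. Its estimate was a log2 fold change of -0.17 ± 0.35 (SE) with a 95% interval of -0.96 to 0.62. Per kilobase, Cd274 was 20.3 ± 11.7 times the level of Pdcd1lg2 in the combination and 25.8 ± 4.30 times in monotherapy (SD, n = 3 each). An annotated gene on the opposite strand, A930007I19Rik, overlaps Pdcd1lg2 and had 105 counts over the combination libraries and 80 over monotherapy, beside 116 in the combination and 140 in monotherapy for Pdcd1lg2. Strand use in counting is not given in the sources used here, so reads of both cannot be told apart. An antisense gene also overlaps Cd274 but was not among the genes counted. On the opposite strand Gm20531 overlaps Ptpn6, with 109 counts beside 52190 in the combination and 123 beside 49912 in monotherapy. On the same strand Gm42930 overlaps Ptpn11, with 28 counts beside 11569 in the combination and 11 beside 12731 in monotherapy. Gm37039 overlaps Icos, also on the same strand, with 49 beside 6466 in the combination and 62 beside 7477 in monotherapy.

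Of the CD28 ligands, Cd86 was readily counted and Cd80 was close to undetected. Cd86 was at 34.6, 36.2 and 24.7 CPM in the combination and 38.4, 26.9 and 32.4 CPM in monotherapy, with overlap between groups. Its log2 fold change was -0.03 ± 0.19 (SE), and its 95% interval of -0.45 to 0.38 takes in ratios of 0.732 to 1.31 (edgeR adjusted p = 0.987). Cd80 had 4, 6 and 6 counts in the combination and 5, 17 and 13 in monotherapy, which also overlap. With 16 counts over the combination and 35 over monotherapy it was not tested.

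Because these ligands are typical of antigen-presenting cells, their levels are set beside markers of such cells. The B cell marker Ms4a1 lay at 0.547 to 5.20 CPM in the combination and at 1.64 to 4.37 CPM in monotherapy. All 12 B cell markers were detected, none passed, and their summed level was 490.5 to 614.9 CPM in the combination and 501.2 to 567.9 CPM in monotherapy. Of that sum Ighm made 450.1 to 545.5 CPM in the combination and 433.0 to 511.7 CPM in monotherapy. Without Ighm and Ighd the other 10 summed to 29.6 to 68.2 CPM in the combination and 44.8 to 64.7 CPM in monotherapy. The 17 dendritic cell and macrophage markers were all detected in some library, none of the 10 tested passed, and they summed to 315.6 to 390.7 CPM in the combination and 359.1 to 390.3 CPM in monotherapy. Most of that was Ccr7, which naive T cells also express. Without Ccr7 and Fscn1, the other 15 summed to 22.2 to 28.7 CPM in the combination and 16.2 to 33.7 CPM in monotherapy. Among them Itgax was at 5.04 to 7.46 CPM in the combination and 3.07 to 3.86 CPM in monotherapy, and Xcr1 at 2.37 to 2.77 CPM in the combination and 1.56 to 1.98 CPM in monotherapy, both without overlap and without passing (edgeR adjusted p = 0.114 and 0.751). Cd68 was at 6.32 to 9.95 CPM in the combination and 6.22 to 9.05 CPM in monotherapy, and Lyz2 at 1.58 to 4.83 CPM in the combination and 1.47 to 10.2 CPM in monotherapy. Adgre1, C1qa, C1qb and Cd209a were each at most at 0.474 CPM in any library. With the dendritic cell and macrophage sum as a covariate, the log2 fold change of Cd274 was -0.93 (edgeR adjusted p = 0.0131). Without Ccr7 and Fscn1 in that sum it was -0.75 (edgeR adjusted p = 0.185). With the B cell sum it was -0.60 (edgeR adjusted p = 0.0565), and without Ighm and Ighd in the sum -0.69 (edgeR adjusted p = 0.470). The fits with genes left out were chosen after the data were seen. Beyond such covariate fits, the part of these cells in the ligand levels was not tested.

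Neither phosphatase passed. Ptpn6 was at 426, 494 and 504 CPM in the combination and 446, 396 and 442 CPM in monotherapy, and its groups overlapped. Its log2 fold change was 0.15 ± 0.15 (SE), with a 95% interval of -0.19 to 0.48 (edgeR adjusted p = 0.934). Ptpn11 was at 95.6, 110.2 and 109.9 CPM in the combination and 99.0, 114.6 and 112.6 CPM in monotherapy. Its log2 fold change was -0.05 ± 0.13 (SE), and the 95% interval of -0.34 to 0.24 is the narrowest after that of Cd28. Per kilobase, Ptpn6 was 12.05 ± 0.178 times Ptpn11 in the combination and 10.6 ± 1.40 times in monotherapy (SD, n = 3 each).

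**Figure D3:**
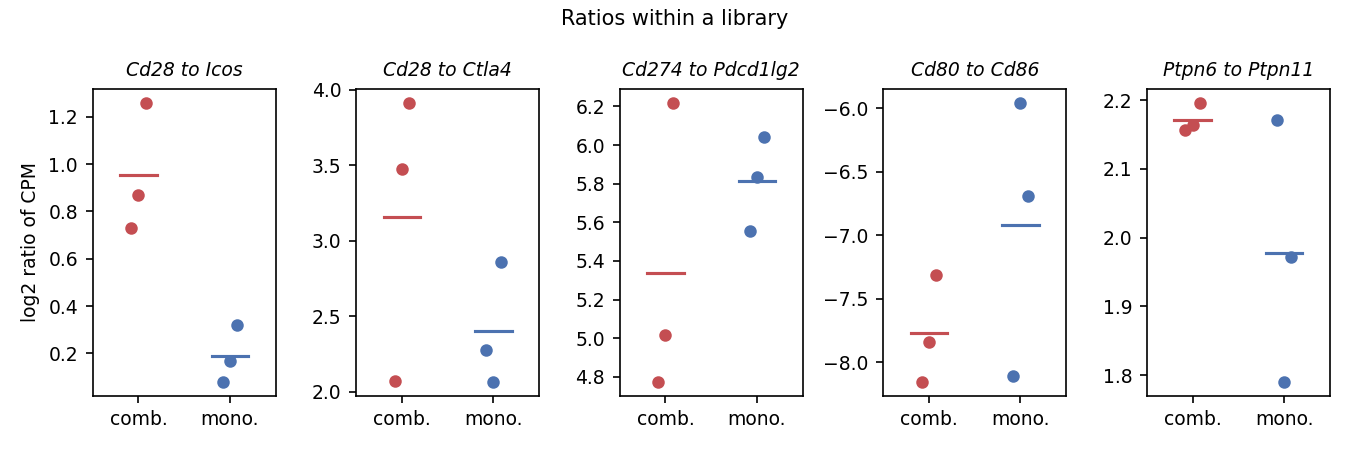
The log2 ratio of CPM of 5 pairs of genes within each library, with combination in red on the left, monotherapy in blue on the right and the mean as a bar. The vertical axes differ between panels. The ratio of Cd28 to Icos is the one whose groups do not overlap, at 0.73 to 1.26 in the combination and 0.08 to 0.32 in monotherapy.

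The order of levels per kilobase changed in its middle between the groups. In the combination Ptpn6 led at 169.4 ± 15.0 CPM per kilobase, followed by Cd28 at 18.6 ± 0.912, Icos at 17.3 ± 2.58, Ptpn11 at 14.0 ± 1.11, Cd274 at 11.6 ± 2.33 and Cd86 at 8.70 ± 1.70 (SD, n = 3). From Cd28 to Cd86 each of these overlapped the next. In monotherapy Ptpn6, at 152.7 ± 9.81 CPM per kilobase, was followed by Icos at 18.8 ± 2.49, Cd274 at 18.7 ± 2.01, Ptpn11 at 14.5 ± 1.13, Cd28 at 11.9 ± 0.606 and Cd86 at 8.90 ± 1.58, and of these only Icos and Cd274 overlapped. Pdcd1, Pdcd1lg2 and Cd80 closed the order in both groups with no overlap, at 2.21 ± 0.697, 0.650 ± 0.211 and 0.0853 ± 0.0120 CPM per kilobase in the combination and 2.54 ± 0.649, 0.731 ± 0.0450 and 0.173 ± 0.0866 in monotherapy. By mean level over all libraries, Ptpn6 was above 98.2% of the genes tested, Icos above 80.0%, Cd28 above 76.8%, and Pdcd1 above 39.6%.

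Genes around this axis were read from the same fit in 5 lists. In the list of other B7 and CD28 family genes, 8 of 12 were tested and none passed, with a median log2 fold change of 0.05. Its smallest p belonged to Cd160, a receptor that shares the ligand HVEM with BTLA, at 54.4, 54.1 and 32.2 CPM in the combination and 30.5, 23.5 and 23.7 CPM in monotherapy (log2 fold change 0.86 ± 0.21 (SE), edgeR adjusted p = 0.138). Vsir, which encodes the inhibitory B7 relative VISTA, and Btla had log2 fold changes of -0.18 ± 0.14 and 0.16 ± 0.14 (SE).

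The kinases, adaptors and outputs of T cell receptor and CD28 signalling lay near 0. Of 32 tested genes none passed, 17 were above 0 and 15 below, and the median was 0.0046. The combination libraries lay all above monotherapy for 5 genes and all below for 0, against 7.17% and 7.54% of all genes. The unadjusted p was below 0.05 for 2 of the 32, a share near the 8.0% over all genes. These were Bcl2l1, which encodes the survival protein BCL-XL that CD28 signals induce, and Pik3r1, a regulatory subunit of PI3 kinase. Bcl2l1 was at 23.8, 22.6 and 24.3 CPM in the combination and 16.4, 16.7 and 14.7 CPM in monotherapy, with no overlap (log2 fold change 0.57 ± 0.13 (SE), edgeR adjusted p = 0.0999). Pik3r1 had 0.30 ± 0.13 (SE). Il2 had too few counts to be tested.

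Other genes listed as brakes on the same signals were also without a call, though Ptprc and Sh2d1a among them act in both directions. All 15 were tested, 10 lay above 0, and the median log2 fold change was 0.09. Ptpn22, a phosphatase that acts on LCK and ZAP-70, was at 383, 362 and 346 CPM in the combination and 290, 282 and 272 CPM in monotherapy, without overlap (log2 fold change 0.37 ± 0.13 (SE), edgeR adjusted p = 0.420). Sh2d1a, the SLAM receptor adaptor SAP, had 0.72 ± 0.27 (SE) with overlapping groups, and Csk, the kinase that restrains LCK, had 0.20 ± 0.14 (SE).

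**Figure D4:**
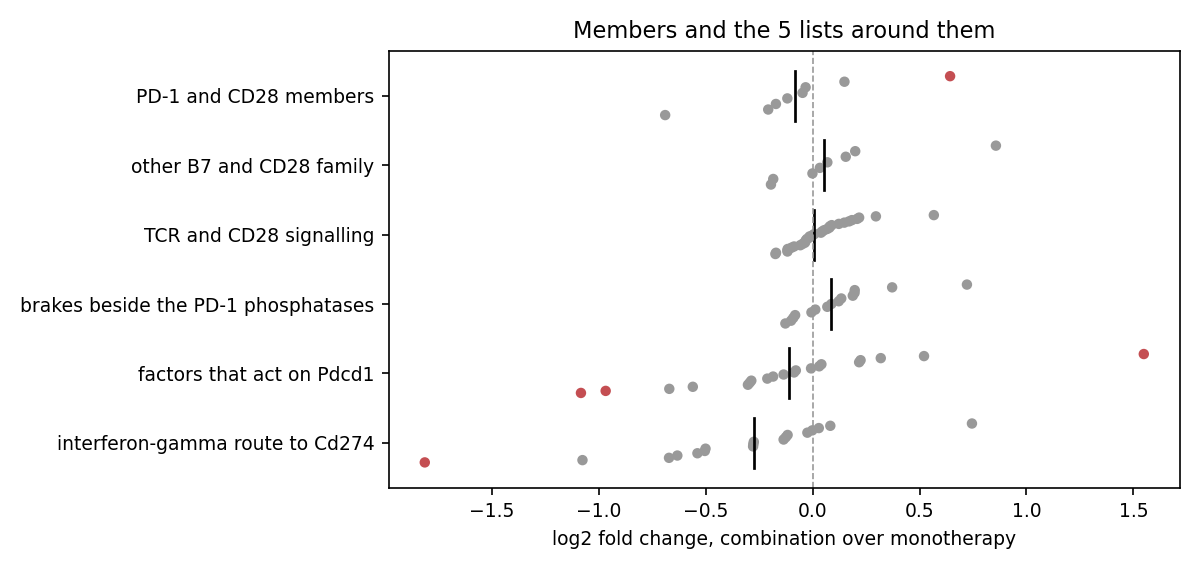
The log2 fold change of combination over monotherapy for each gene tested, by row: the 8 members, then the 5 lists. Red points passed at an edgeR adjusted p under 0.05, grey points did not, and the black bar is the median of the row. Points are spread vertically in order of value, and the row of the interferon-gamma route has the lowest median, -0.28.

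Among 20 transcription factors known to act on Pdcd1, Tbx21 rose, Nr4a2 and Jun fell and 17 did not pass, against 0.951% of all genes called higher and 0.132% called lower. The median log2 fold change was -0.11. Tbx21 encodes T-bet, which represses Pdcd1, and was at 30.7, 32.5 and 35.7 CPM in the combination against 7.94, 13.0 and 12.8 CPM in monotherapy. Jun, the AP-1 subunit, and Nr4a2 fell by 0.97 and 1.08 on the log2 scale. Nr4a1, also induced by antigen receptor signals, was at 25.9, 21.4 and 23.9 CPM in the combination and 36.4, 35.8 and 32.8 CPM in monotherapy (edgeR adjusted p = 0.109). Fos and Eomes had log2 fold changes of -0.67 ± 0.17 and 0.52 ± 0.14 (SE) and did not pass. In 22 other settings 1 or 2 of the list were called higher, while the number that fell ran from 0 to 4. It was 0 without combination replicate 2, without any one monotherapy replicate, with Dct and Tyrp1 as a covariate and with either trimmed marker list (B cell without Ighm and Ighd, dendritic cell and macrophage without Ccr7 and Fscn1) as a covariate.

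In the list of the interferon-gamma route to PD-L1, the chemokine Cxcl10 fell, none rose and 17 of 18 did not pass, against 0.132% of all genes called lower. The list holds the receptor, kinases, factors and targets of interferon-gamma, with Cmtm6 and Cmtm4. Cxcl10 is among the targets and is not a step before Cd274. The median log2 fold change was -0.28, with 15 below 0 and 3 above. The unadjusted p was under 0.05 for 6 of the 18, beside 8.0% over all genes. The combination libraries all lay below monotherapy for 6 and all above for 1, against 7.54% and 7.17% of all genes. Cxcl10 was at 3.28, 2.35 and 1.89 CPM in the combination and 8.94, 7.80 and 9.63 CPM in monotherapy. Irf1, a factor that induces Cd274 in response to interferon-gamma, was at 375, 340 and 327 CPM in the combination and 594, 556 and 511 CPM in monotherapy, with no overlap (log2 fold change -0.67 ± 0.15 (SE), edgeR adjusted p = 0.0884). Socs3, a feedback inhibitor, had -0.63 ± 0.17 (SE), without overlap and without passing. Ifngr1, the ligand-binding chain of the receptor, went the other way at 0.75 ± 0.18 (SE, edgeR adjusted p = 0.118). Ifng itself had -0.0014 ± 0.21 (SE). In 22 other settings the number of the list that rose ran from 0 to 1 and the number that fell from 0 to 4. The number that fell was 0 without monotherapy replicate 1, without monotherapy replicate 3 and with the B cell markers other than Ighm and Ighd as a covariate. It was 3 with no filter, and 4 in DESeq2 and with the ribosomal protein share as a covariate.

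Over the 6 libraries, the genes with the pattern most like that of a member were taken as those of at least 5 CPM with the smallest root mean square difference of log2 CPM, each gene centred on its own mean. Among 8993 genes, those nearest to Cd28 were Tcf19, Errfi1, Dleu2, Tm6sf1 and Map3k8, at 0.061 to 0.077, where Cd28 itself varied by 0.33 around its mean. Those nearest to Cd274 were Bcl9, Bend3, Il18bp, Zswim9 and Egr3, at 0.049 to 0.10, with 0.40 for Cd274. For Pdcd1 the nearest, Rad18, Endog, Gadd45g, Ptges2 and Tpd52, were farther off at 0.13 to 0.16, with 0.36 for Pdcd1. None of these 15 genes passed in edgeR.

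**Figure D5:**
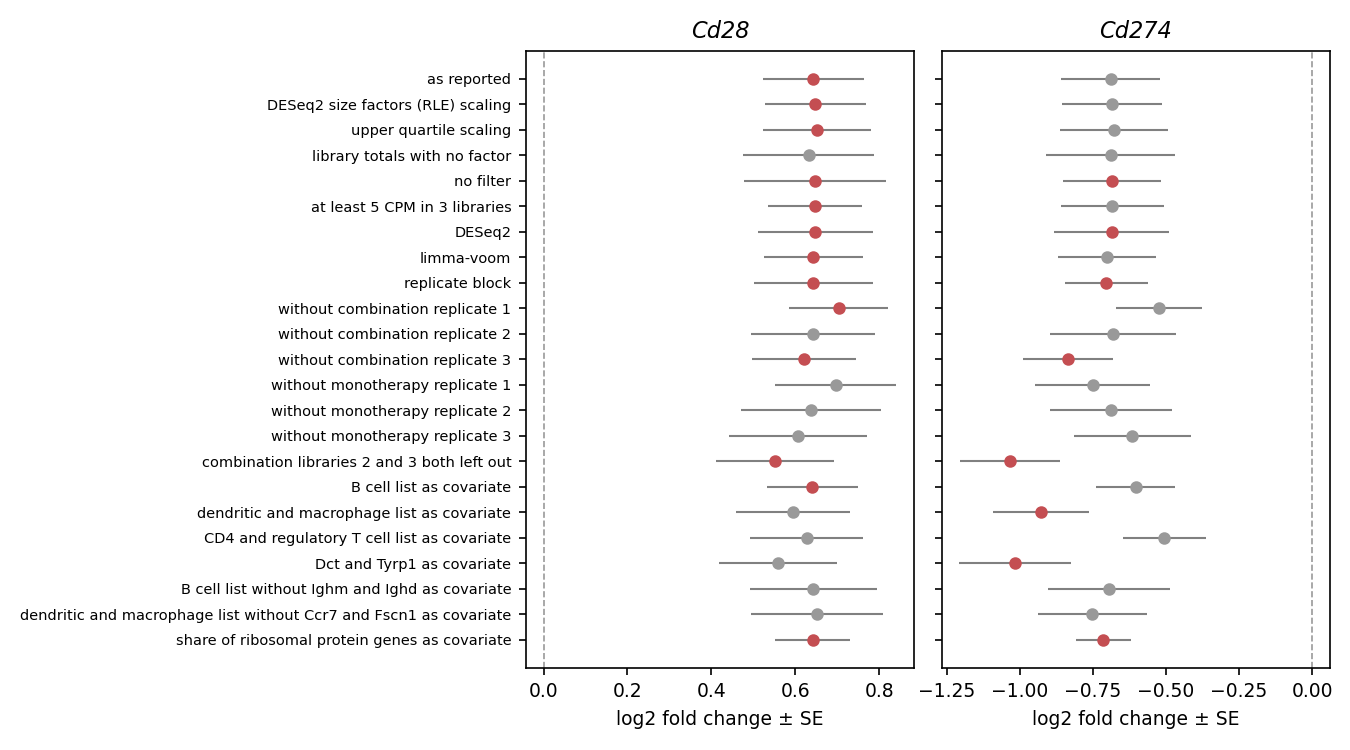
The log2 fold change of combination over monotherapy with its SE for Cd28 on the left and Cd274 on the right, in the fit reported and in 22 other settings. Red points have an adjusted p under 0.05. Cd28 lies between 0.55 and 0.70 and Cd274 between -1.03 and -0.51, and both change side of the threshold between settings.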

How the data were processed

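The members and gene lists were chosen with earlier results of these data known. The tools listed in the submitters' processing notes are DESeq2, STAR (2.5.2b), Subread (1.5.2) and featureCounts. For settings, strand and build, the text used here has no statement. The authors deposited whole-number read counts per gene, not normalized, and other columns with gene lengths in bases, per the file headers. Counts in 6 of 6 libraries were identical in the per-library and whole-series files, and a further 6 columns that match no sample here were not used. Coordinates equal those of GENCODE M21 (GRCm38) for 91.4% of 49056 shared genes.

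Fits used edgeR 4.0.16, with DESeq2 1.42.0 and limma 3.58.1 as alternatives, under R 4.3.3. filterByExpr left 15142 genes, TMM factors ran from 0.901 to 1.12, and no covariate was used. SE is the log2 fold change divided by the square root of F. TPM had been planned for levels between genes. The sum of counts per base ran from 10896 to 14922 over libraries, so CPM per kilobase was used instead; in TPM, Cd274 and Icos change places in monotherapy. The fit was tested on simulated data. The chi-square per gene between libraries was 9.94 to 296, so no library was a copy. Members, list genes past the threshold and up to 4 more per list were named. Some items are not reported here. Replicates are separate mice per the series' design text, and p-values measure the spread between them.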

Additional observations from a re-analysis of the deposited data

How the results depend on the processing

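Results were recomputed under 22 other settings, 3 of them chosen after seeing the data (the B cell markers without Ighm and Ighd, the dendritic cell and macrophage markers without Ccr7 and Fscn1, and the ribosomal protein share, each as a covariate). Cd28 kept its sign in all 22 and passed in 12, and Cd274 kept its sign in all 22 and passed in 8. The number of members higher was 0 instead of 1 with library totals, with dendritic cell and macrophage, CD4 and regulatory T cell, or Dct and Tyrp1 covariates, and with both trimmed marker covariates; over single libraries left out it was 0 to 1. The number of members lower was 1 instead of 0 with no filter, in DESeq2, with the replicate block, with combination libraries 2 and 3 both left out, and with the dendritic cell and macrophage, Dct and Tyrp1, or ribosomal covariates; over single libraries left out it was 0 to 1. The fit with 1 combination library assumes that it varies like the others.

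Over all genes, 144 were higher and 20 lower. The higher genes numbered 340 with no filter, 284 in DESeq2, 231 with the replicate block, 834 with combination libraries 2 and 3 both left out, 235 with the B cell covariate, 37 and 85 with the trimmed B cell and dendritic covariates, 391 with the ribosomal covariate, and 32 to 233 with single libraries left out. The lower genes numbered 113, 73, 57, 628, 63, 1, 8 and 229 in the same settings, 69 and 80 with the dendritic cell and Dct and Tyrp1 covariates, and 2 to 49 with single libraries left out. The cause of these shifts was not tested.

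Deviations of log2 CPM from the group mean were correlated at 0.15, -0.06 and 0.28 between same-numbered libraries of the 2 groups. Between libraries of unlike number they were correlated at -0.23 to 0.12. So few values cannot decide whether the numbers pair the mice. With the replicate block Cd28 had a log2 fold change of 0.64 (edgeR adjusted p = 0.0209) and Cd274 -0.70 (adjusted p = 9.8e-03).

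Among members that did not pass, signs near 0 changed. With single libraries left out, the log2 fold change ran from -0.42 to 0.012 for Pdcd1, -0.34 to 0.076 for Pdcd1lg2, -0.095 to 0.038 for Ptpn11, -0.21 to 0.0012 for Icos and -0.16 to 0.12 for Cd86. Pdcd1 and Pdcd1lg2 gave no value under the filter of 5 CPM in 3 libraries. Without combination replicate 3 the log2 fold change of Pdcd1 was 0.010, Pdcd1lg2 0.076, Icos 0.0012 and Cd86 0.12. With combination libraries 2 and 3 both left out it was 0.17 for Pdcd1, 0.0084 for Pdcd1lg2, -0.013 for Ptpn6, 0.0047 for Icos and 0.082 for Cd86. With Dct and Tyrp1 as a covariate it was 0.20 for Pdcd1, 0.025 for Pdcd1lg2, -0.0049 for Ptpn6, 0.0071 for Icos and 0.084 for Cd86. With the dendritic cell and macrophage covariate it was 0.021 for Pdcd1lg2 and 0.17 for Cd86, and with the trimmed B cell covariate 0.0093 for Cd86. It was 0.012 for Pdcd1 without monotherapy replicate 2, 0.11 for Cd86 without monotherapy replicate 1, 0.038 for Ptpn11 without combination replicate 1 and 0.052 for Ptpn11 with the CD4 covariate. Cd80, with 16 counts over the combination and 35 over monotherapy, was removed by the count filter and was not tested.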
